A study of Mus musculus with 5 samples.

Results

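The genes described here encode the matrix metalloproteases (MMPs, gene names starting with Mmp), the ADAM and ADAMTS metalloproteases and the 4 tissue inhibitors of metalloproteases (TIMPs). They were taken from Agilent mouse arrays of 1 colour as every gene whose symbol starts with Mmp, Timp, Adam or Adamts followed directly by a digit, read from the array's gene name or from the current symbol of the probe's accession. The rule found 124 probes for 71 genes, out of 41174 probes and 28769 gene names. The 71 genes comprise 21 MMP, 29 ADAM, 17 ADAMTS and 4 TIMP genes, and 35 of them have 1 probe. The 5 arrays each hold RNA of 1 mouse cell line, in 3 groups. The induced hepatic progenitor cells (iHPC, 2 arrays) were made from the neural line NSBAg2 by infection with pMXs retroviruses carrying 9 transcription factors (9F) or 10 (10F), were given the drug G418 3 weeks after infection, and were harvested after 1 week in it. The hepatic progenitor cells (HPC, 2 arrays) are the lines HB1, from mice of strain C57BL6J, and HNG2, from STOCK Tg(Nanog-GFP, Puro)1 Yam mice, both established from E13.5 fetal liver. The neural progenitor cells (NPC, 1 array) are the uninfected line NSBAg2. NSBAg2 comes from the embryonic stem cell line BAg73C2, which carries a beta-geo knock-in allele in Afp, so iHPC and NPC share that allele and G418 selected iHPC for Afp transcription. No label gives 2 cultures of 1 line, so each p-value rests on how far HB1 lies from HNG2 and 9F from 10F, and the NPC value has no replicate.

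MMPs are secreted or membrane-bound zinc enzymes that cut collagens and other matrix proteins, most are made as inactive precursors, and TIMPs block them by binding the active site. ADAMs are membrane proteins, several of which release growth factors, cytokines and adhesion molecules from the cell surface, while others lack protease activity and act in adhesion or sperm function. ADAMTS enzymes are secreted and cut proteoglycans, procollagens and von Willebrand factor. In liver these enzymes and inhibitors are studied in development, regeneration and the turnover of scar matrix.

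Levels are given on a log2 scale, with the array's 75th percentile of signal at 0, and they compare arrays for 1 gene and not 1 gene with another. Per array, 58.9% to 65.6% of the spots were well above background, by the scanner software's own test, and 0 were saturated. HB1 was scanned on day 1, HNG2 on day 2 and both iHPC arrays with NPC on day 3, so the day of scanning and HPC cannot be told apart, and 10F shares a slide with NPC. All 6 hepatoblast markers examined, among them Afp and Alb, were well above background on every iHPC and HPC array, and 2 of the 6 on the NPC array. All 5 neural markers tested were well above background in NPC, but only Sox2 (0.86) and Pax6 (-0.99) were highest there. Nes read 2.66 and 2.87 in iHPC, 0.28 and 1.52 in HPC and 1.18 in NPC, Sox1 was highest in HB1, and Fabp7 read -4.26 in HNG2 and -4.31 in NPC. Olig2 was not well above background on any array. The same NPC array carried all 7 fibroblast markers tested (Col1a1, Col1a2, Pdgfra, Pdgfrb, Thy1, Dcn and Twist1), whose summed signal stood at 1.70 in 9F and 1.61 in 10F, at -2.75 in HB1 and 1.09 in HNG2, and at 7.13 in NPC. The remaining fibroblast marker, Lum, was not well above background on any array. Each of the 7 tested fibroblast markers was highest in NPC, as were many of the genes below. The part of these markers in the differences from NPC was not tested. In such bulk RNA, fewer cells of a type and less RNA per cell cannot be told apart.

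Of the 71 genes, 53 were tested because their signal was well above background on all arrays of 1 or more groups, and 22 of these were so on all 5 arrays. In iHPC against NPC, 2 of the 53 rose and 7 fell at a limma adjusted p under 0.05. Among all 19303 genes tested in that comparison, 5.64% were called, 2.79% higher and 2.85% lower. In iHPC against HPC, 3 rose and 5 fell, and 5.42% of all genes were called, 3.54% higher and 1.88% lower. In HPC against NPC, 5 were higher and 14 lower, and 15.7% of all genes were called, 6.68% higher and 8.98% lower. The members called lower were 13.2% of the 53 in iHPC against NPC, 9.43% in iHPC against HPC and 26.4% in HPC against NPC, and those called higher were 3.77%, 5.66% and 9.43%. Of the members called lower than NPC, 4 of 7 in iHPC and 7 of 14 in HPC had passed the filter on dim probes through NPC alone. In iHPC they were Adam25, Mmp16, Mmp1a and Mmp25, and HPC added Adam29, Adamts20 and Mmp9. These genes had to be lower. Of the members called higher than NPC, Mmp15 and Adamts15 in iHPC, and these with Adam4 in HPC, were not well above background in NPC. They passed through iHPC and HPC alone and had to be higher than NPC. The p-values of all these genes against NPC give no support, and the shares are not read against the background. With normexp background correction the splits were 0 higher and 11 lower, 5 and 4, and 4 and 24, in that order of comparisons. For all genes, median centring moved the split of iHPC against HPC to 676 higher and 621 lower, against 683 and 363 here, and that of HPC against NPC to 1875 and 1478, against 1290 and 1734. The 3 comparisons share arrays and are not independent of one another.

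The group mean was highest in NPC for 37 of the 53 tested genes, in HPC for 11 and in iHPC for 5. The median log2 difference over the 53 was -1.28 for iHPC minus NPC, 0.51 for iHPC minus HPC and -1.37 for HPC minus NPC, beside medians over all genes of 0.03, 0.05 and -0.03. These figures describe the genes that passed the filter: 9 of them passed only through NPC, 5 only through HPC and 1 only through iHPC, so that those genes had to differ. Among the 18 untested genes are the collagenase gene Mmp8, the macrophage elastase gene Mmp12, the enamel protease gene Mmp20 and Mmp21, none of them well above background on any array. Adamts13, whose enzyme cuts von Willebrand factor and is made in the liver by stellate cells, was also not well above background on any array.

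**Figure D1:**
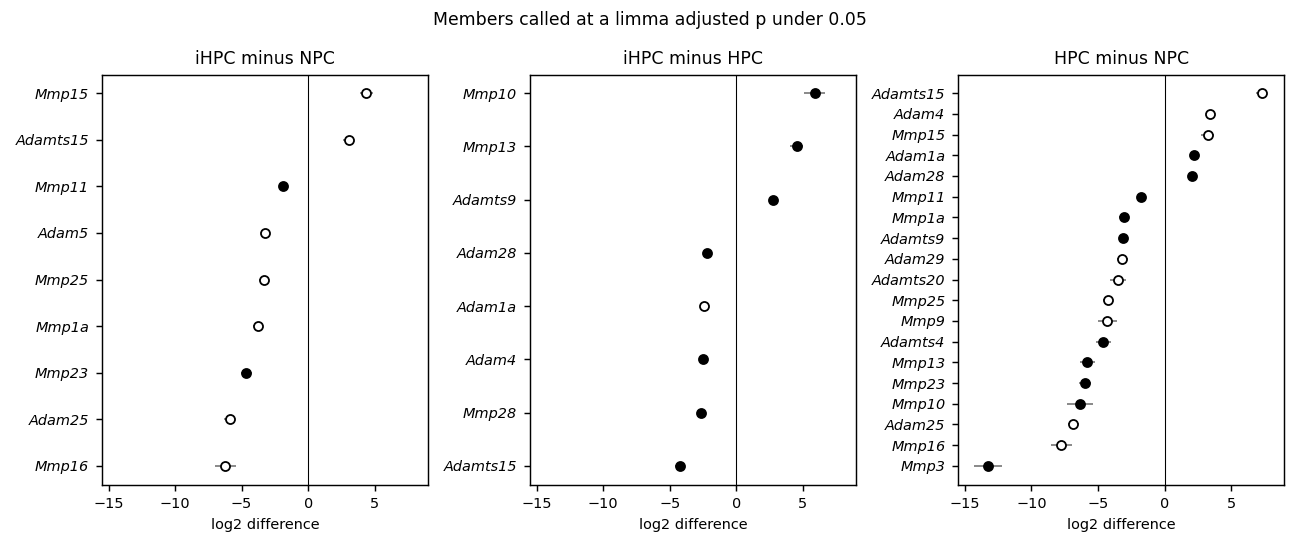
Log2 differences, with SE as bars, of the members called at a limma adjusted p under 0.05 in each of the 3 comparisons. Open points mark genes that no array of 1 of the 2 groups measured well above background, and most points of HPC minus NPC lie left of 0 (14 of 19).

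The collagenase genes and the stromelysin genes Mmp3 and Mmp10 lie together on mouse chromosome 9. The order among RefSeq's protein-coding genes is Mmp13, Mmp12, Mmp1b, Mmp3, Mmp1a, Mmp10, Mmp8, Mmp27, Mmp20 and Mmp7. Of these 10 genes, 8 have a probe on the array and 5 were tested. The stretches before the start sites of those 5 are shown because the genes share letters there while their signals part between the lines. Each runs 5′ to 3′ on the plus strand of GRCm38.p6, as given by RefSeq, with capitals marking an AP-1 match (TGACTCA, or TGAGTCA on the other strand) and the letters TATAAA. AP-1 is the Fos and Jun dimer, known to act on several MMP promoters. The spans are chr9:7272394-7272513 (Mmp13), chr9:7445702-7445821 (Mmp3), chr9:7464021-7464140 (Mmp1a), chr9:7502222-7502341 (Mmp10) and chr9:7691970-7692089 (Mmp7).
Mmp13: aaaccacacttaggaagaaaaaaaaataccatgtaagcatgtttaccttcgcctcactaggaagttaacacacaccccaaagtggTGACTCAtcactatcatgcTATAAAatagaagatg
Mmp3: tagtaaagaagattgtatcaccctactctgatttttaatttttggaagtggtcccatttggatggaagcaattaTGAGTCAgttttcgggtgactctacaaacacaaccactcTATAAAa
Mmp1a: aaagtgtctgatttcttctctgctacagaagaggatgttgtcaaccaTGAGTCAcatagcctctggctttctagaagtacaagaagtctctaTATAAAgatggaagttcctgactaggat
Mmp10: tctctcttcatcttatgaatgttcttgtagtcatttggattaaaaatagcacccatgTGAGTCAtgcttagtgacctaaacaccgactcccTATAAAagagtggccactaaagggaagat
Mmp7: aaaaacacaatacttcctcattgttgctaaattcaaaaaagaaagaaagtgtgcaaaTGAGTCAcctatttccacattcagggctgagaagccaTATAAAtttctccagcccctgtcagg
With the base before the start counted as -1, the AP-1 letters begin at -35 in Mmp13, -46 in Mmp3, -73 in Mmp1a and -63 in both Mmp10 and Mmp7, and TATAAA follows in each. In windows of 250 bases before to 50 after the start, 5.2% of all 32851 RefSeq promoter sequences held the AP-1 letters, and 8.32% held TATAAA on the gene's strand. Of the 71 members 42 had such a sequence, and 9 of those held the AP-1 letters: Mmp3, Mmp7, Mmp10, Mmp12, Mmp13, Mmp1a, Adam19, Adam1b and Adam29. A gene was counted if any of its sequences held the letters, and 5.95% of all genes did so. Along the cluster itself 7 of the 10 genes held them, Mmp1b included. A match says only that the letters are there.

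Mmp3 encodes stromelysin 1, which cuts proteoglycans and activates other MMPs. Its probe lies at chr9:7453874-7453933 on mm7. It read -1.33 in 9F and -1.43 in 10F, -8.27 in HB1 and -5.96 in HNG2, and 6.14 in NPC, and the HB1 value was not well above background. NPC stood far above every other array and both iHPC arrays stood above both HPC arrays. HPC were at least 4448-fold lower than NPC (log2 difference -13.26, SE 1.07, limma adjusted p = 0.0143), with 1 of 2 HPC arrays measured. iHPC were 184-fold below NPC (-7.52, SE 1.07) at an adjusted p of 0.0514, which was 0.0044 with the scan day as a block. Since iHPC and NPC share a scan day, the block adjusts nothing between them. Here and below it only takes the HPC arrays out of the spread and leaves it to 9F and 10F. The difference of 10F alone from NPC on their shared slide was -7.57. Against HPC, iHPC read at least 24.2-fold higher (5.73, adjusted p = 0.0588). Neither of the iHPC differences passed in the fit of all 5 arrays. With normexp background correction both did (adjusted p = 0.0086 and 0.0145).

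Mmp10 (stromelysin 2) and Mmp13 (collagenase 3, a main interstitial collagenase of the mouse) followed another pattern, with iHPC nearer to NPC than to HPC. Mmp10, with its probe at chr9:7508134-7508193 on mm7, read 1.60 in 9F and 1.86 in 10F, -5.15 in HB1 and -3.12 in HNG2, and 2.22 in NPC. Mmp13, with its probe at chr9:7280046-7280105 on mm7, read 1.58 in 9F and 1.78 in 10F, -3.39 in HB1 and -2.28 in HNG2, and 2.97 in NPC. For both genes all iHPC arrays lay above both HPC arrays and below NPC. Mmp10 was 58.5-fold higher in iHPC than in HPC (5.87, SE 0.78, adjusted p = 0.0475) and 81.9-fold lower in HPC than in NPC (-6.36, SE 0.95, adjusted p = 0.0344). Mmp13 was 22.8-fold higher in iHPC than in HPC (4.51, SE 0.46, adjusted p = 0.0324) and 56.0-fold lower in HPC than in NPC (-5.81, SE 0.56, adjusted p = 0.0178). The iHPC minus NPC differences were -0.48 for Mmp10 (adjusted p = 0.817) and -1.29 for Mmp13 (adjusted p = 0.272). With the scan day as a block Mmp13 was called lower in iHPC than in NPC, and Mmp10 was not. The call of Mmp10 against HPC was lost under quantile normalization.

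The other tested genes of the cluster were dimmer. Mmp1a, a mouse interstitial collagenase gene, was not well above background on either iHPC array and on 1 of 2 HPC arrays (-6.19 in HNG2), and read -3.51 in NPC. The probe of Mmp1a had passed the filter on dim probes through NPC alone. It was at least 3.78-fold lower in iHPC than in NPC (adjusted p = 0.0326) and at least 5.98-fold lower in HPC than in NPC (adjusted p = 0.0254). Both calls were lost under quantile normalization (adjusted p = 0.0613 and 0.075), and the call in iHPC also with normexp, where the log2 difference was -0.91 (adjusted p = 0.14). Mmp7 encodes matrilysin, a small epithelial MMP. It read -4.52 in 9F and -1.32 in 10F, -5.82 in HB1 and -5.39 in HNG2, and -6.47 in NPC, where HB1 and NPC were not well above background. The 2 iHPC arrays thus lay 3.20 log2 units apart, and at least 6.40-fold above NPC on average, with no call (adjusted p = 0.262). By signal, 2 of the 53 tested genes were at least 4-fold apart between 9F and 10F, where 0.73% of all genes were. They were Mmp7, well above background on both arrays, and Adam33, which was not so in 9F and was at least 2.04-fold apart.

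**Figure D2:**
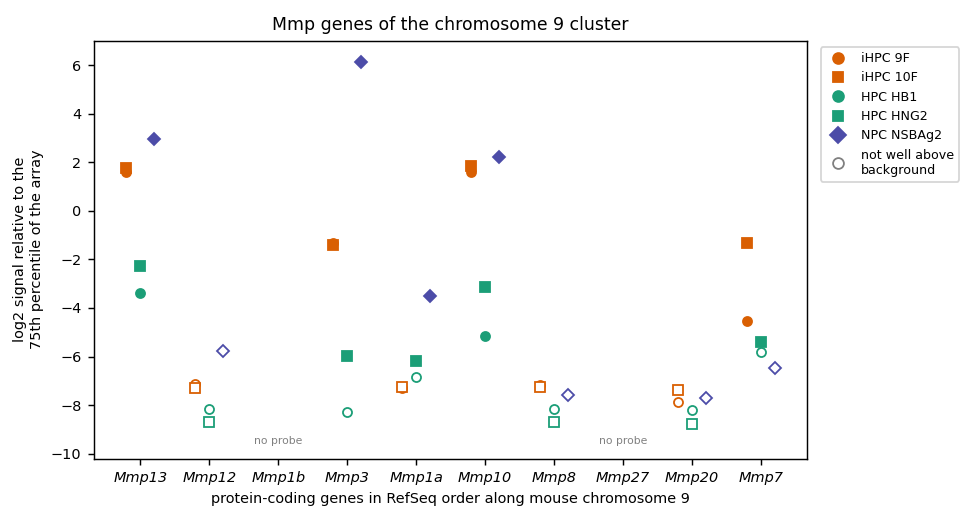
Log2 signal relative to the array's 75th percentile for the Mmp genes of the chromosome 9 cluster in RefSeq order (iHPC orange, HPC green, NPC blue; open symbols not well above background). Mmp13 and Mmp10 read between 1.58 and 1.86 in iHPC, below 0 in both HPC lines and above 2 in NPC, while Mmp3 read 6.14 in NPC and below 0 on every other array.

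Mmp11, which encodes stromelysin 3, an MMP activated inside the cell by furin and known from stromal cells, lies outside the cluster. It read 0.97 in 9F and 1.21 in 10F, 1.27 in both HB1 and HNG2, and 3.01 in NPC. All 4 hepatic arrays lay close together below NPC. The difference from NPC was 3.80-fold in iHPC (log2 difference -1.93, SE 0.25, adjusted p = 0.045) and 3.35-fold in HPC (-1.75, adjusted p = 0.0312). Both calls were lost under median centring (adjusted p = 0.0556 and 0.0555).

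The gelatinase genes Mmp2 and Mmp9, whose enzymes cut denatured collagen and basement membrane, were both above background in NPC. Mmp2 read 1.22 in 9F and 0.81 in 10F, -6.86 in HB1 and -1.19 in HNG2, and 4.23 in NPC, with HB1 not well above background. HNG2 was at least 28.0-fold above HB1, and both iHPC arrays lay above both HPC arrays and below NPC. With that spread no difference passed: 9.30-fold lower in iHPC than in NPC (-3.22, adjusted p = 0.535), at least 24.3-fold higher in iHPC than in HPC (5.04, adjusted p = 0.232) and at least 226-fold lower in HPC than in NPC (-8.25, adjusted p = 0.116). With the scan day as a block, which leaves the spread to 9F and 10F, the adjusted p of iHPC against NPC was 0.0092. With normexp Mmp2 was called in HPC against NPC. Mmp9 read -2.82 in NPC and was not well above background on any iHPC or HPC array. It was at least 10.3-fold lower in HPC (adjusted p = 0.0399) and at least 6.10-fold lower in iHPC (adjusted p = 0.0563, and 0.005 with the block). The call in HPC was lost under quantile normalization (adjusted p = 0.062). The other probe of Mmp9 passed in both comparisons (adjusted p = 0.0346 in iHPC and 0.019 in HPC). Both probes of Mmp9 had come through the filter on dim probes by NPC alone. Macrophages are a known source of Mmp9 and Mmp12. Of the 7 macrophage markers 4 were well above background on both iHPC arrays, 3 on both HPC arrays and 2, Cd68 and Cd14, in NPC, while Adgre1 and Tyrobp were so on no array. The summed signal of the 4 tested (Ptprc, Csf1r, Cd68 and Cd14) stood at 2.54 in 9F and 2.65 in 10F, at 1.32 in HB1 and 2.76 in HNG2, and at 0.56 in NPC. Cd14 alone read 2.05, 2.13, 1.11, 2.70 and 0.20 on these arrays, in that order. Ptprc was well above background in iHPC alone. The part of these markers in the Mmp9 signal was not tested.

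Of the 6 membrane-type MMP genes 1 was called higher and 2 lower in iHPC than in NPC, and the same counts held in HPC against NPC. Over all genes 2.79% were higher and 2.85% lower in iHPC than in NPC, and 6.68% and 8.98% in HPC. Mmp14 encodes MT1-MMP, which activates the Mmp2 precursor together with TIMP2. Its probe lies at chr14:49308207-49308266 on mm7 and read 0.56 in 9F and 0.43 in 10F, 4.34 in HB1 and 3.08 in HNG2, and 4.49 in NPC. The iHPC arrays were the 2 lowest, and NPC lay just above HB1. Mmp14 read 15.9-fold lower in iHPC than in NPC (-3.99, SE 0.62, adjusted p = 0.0587) and 9.26-fold lower in iHPC than in HPC (-3.21, SE 0.51, adjusted p = 0.0609), and neither passed. Its second probe ran the same way in both comparisons. With the scan day as a block the adjusted p against NPC was 0.0046, and the difference of 10F from NPC on their slide was -4.05. Both comparisons passed under median centring and under normexp background correction. HPC and NPC differed by -0.78 (adjusted p = 0.427).

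Mmp15 and Mmp16 ran opposite ways. Mmp15, which encodes MT2-MMP, read -1.69 in 9F and -1.19 in 10F, -2.12 in HB1 and -2.99 in HNG2, and was not well above background in NPC (-5.80). It was at least 17.8-fold higher in iHPC (adjusted p = 0.0382) and at least 8.23-fold higher in HPC (adjusted p = 0.0365) than in NPC. With normexp both calls were lost, at log2 differences of 1.95 (adjusted p = 0.0548) and 1.05 (adjusted p = 0.0994). Mmp16, which encodes MT3-MMP, read 0.32 in NPC and was not well above background on any iHPC or HPC array. It was at least 53.9-fold lower in iHPC (adjusted p = 0.0436) and at least 98.5-fold lower in HPC (adjusted p = 0.0191). Its second probe was not well above background on any array. The probe used for Mmp16, and that of Mmp25, had passed the filter on dim probes through NPC alone. Mmp25, the gene of a glycolipid-anchored MMP known from leukocytes, read -4.02 in NPC and was at least 2.66-fold lower in iHPC and at least 4.88-fold lower in HPC (adjusted p = 0.0401 and 0.0172). With normexp the call in iHPC was lost (-0.69, adjusted p = 0.172). The differences of Mmp17 and Mmp24 between groups lay between -0.40 and 0.37, with no call on the probes used. The other probe of Mmp24 differed: it read -7.84 in 9F and -7.33 in 10F, both not well above background, and -4.97 in HB1 and -4.46 in HNG2, and was lower in iHPC than in HPC (-2.87, adjusted p = 0.0368).

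Of the 3 other MMP genes tested, Mmp23 was, like Mmp11, highest in NPC, with a wider gap. Mmp23, whose enzyme lacks the hemopexin domain of most MMPs, read -4.18 in 9F and -3.86 in 10F, -4.95 in HB1 and -5.74 in HNG2, and 0.62 in NPC. It was 24.9-fold lower in iHPC than in NPC (-4.64, SE 0.45, adjusted p = 0.0315) and 62.4-fold lower in HPC than in NPC (-5.96, SE 0.45, adjusted p = 0.0133), with every other array under NPC. Mmp28, which encodes epilysin, read -4.66 in 9F and -4.80 in 10F, -2.36 in HB1 and -1.85 in HNG2, and -2.91 in NPC. The iHPC arrays were the lowest 2, and Mmp28 was 6.18-fold lower in iHPC than in HPC (-2.63, SE 0.27, adjusted p = 0.0327). The other probe of Mmp28 did not show this. It was well above background only in 10F (-4.78), and its iHPC minus HPC difference was 0.67. Mmp19 read -3.70 in 9F and -4.31 in 10F, -5.01 in HB1, not well above background in HNG2, and -1.73 in NPC. It was not called (adjusted p = 0.282 in iHPC and 0.071 in HPC against NPC). With normexp it was called in both comparisons, and with the scan day as a block in iHPC against NPC.

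**Figure D3:**
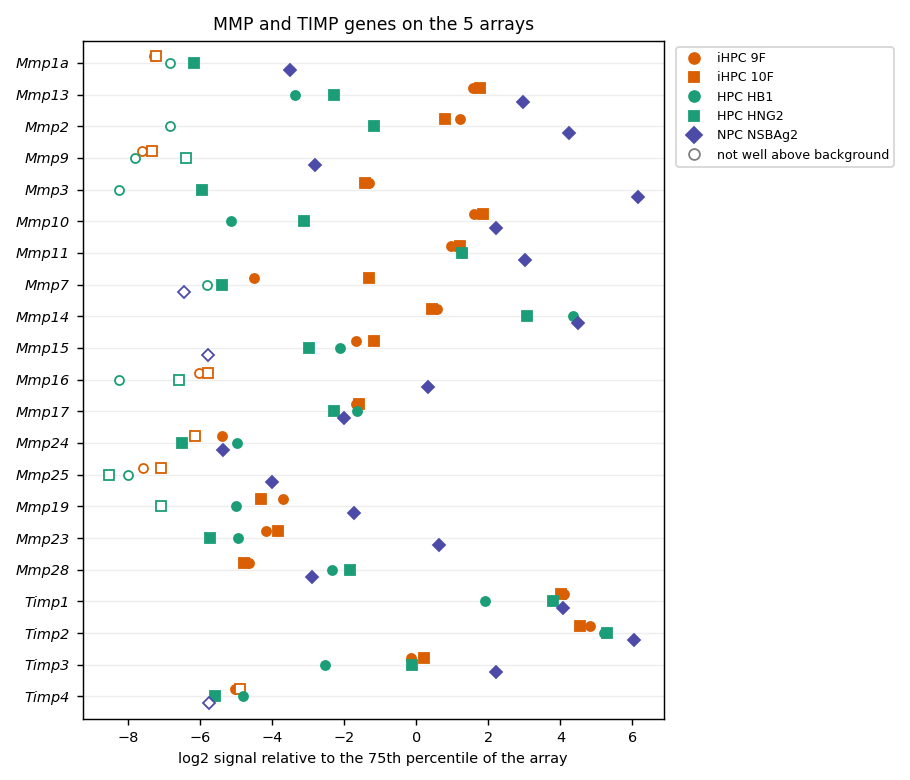
Log2 signal relative to the array's 75th percentile for the 17 tested MMP and 4 TIMP genes on the 5 arrays (open symbols not well above background), 1 gene per line. NPC is the rightmost point for Mmp3, Mmp2, Mmp16 and Mmp23 and the leftmost for Mmp15 and Mmp7, and HB1 alone lies apart for Timp1.

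None of the 4 TIMP genes was called in any comparison (0 of 4 in each). The shares called over all genes were 5.64% in iHPC against NPC, 5.42% in iHPC against HPC and 15.7% in HPC against NPC. Timp1, an inhibitor induced in growth and inflammation, read 4.09 in 9F and 4.03 in 10F, 1.89 in HB1 and 3.80 in HNG2, and 4.08 in NPC. Only HB1 lay apart, 3.74-fold under HNG2, and the other 2 probes of the gene were also lowest in HB1. Timp2, which both inhibits MMPs and helps Mmp14 to activate Mmp2, read 4.82 in 9F and 4.55 in 10F, 5.21 in HB1 and 5.30 in HNG2, and 6.04 in NPC. The iHPC arrays were the 2 lowest, 2.56-fold under NPC, with an adjusted p of 0.0797, which was 0.0239 with the scan day as a block. Timp3, an inhibitor that binds to the matrix and also blocks Adam17, read -0.15 in 9F and 0.21 in 10F, -2.53 in HB1 and -0.11 in HNG2, and 2.22 in NPC. NPC was again the highest array, with differences of -2.19 in iHPC (adjusted p = 0.345, and 0.014 with the block) and -3.54 in HPC (adjusted p = 0.12). Timp4 read between -5.76 and -4.81 on the 5 arrays, near the background, and was not well above it in NPC.

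Of the 9 ADAM genes with known protease activity in somatic tissues, 0 were called against NPC in iHPC, and 1, Adam28, was called in each of the other comparisons. Over all genes 5.64% were called in iHPC against NPC, 5.42% in iHPC against HPC and 15.7% in HPC against NPC. Adam10 and Adam17 encode the main sheddases of Notch receptors, cadherins and EGF receptor ligands. Adam10 read -2.62 in 9F and -2.61 in 10F, -2.82 in HB1 and -3.43 in HNG2, and -2.13 in NPC. Adam17 read 0.91 in 9F and 0.65 in 10F, 0.84 in HB1 and 0.51 in HNG2, and 1.20 in NPC. For both genes NPC was highest by a small margin, the iHPC and HPC arrays of Adam17 overlapped, and the smallest adjusted p of the pair was 0.145, for Adam10 in HPC against NPC. Adam9, a widely expressed sheddase gene, read 3.15 in 9F and 3.19 in 10F, 3.62 in HB1 and 3.77 in HNG2, and 2.61 in NPC (adjusted p = 0.263 in iHPC and 0.0628 in HPC against NPC). Adam15 read between 2.40 and 3.85 on the 5 arrays, lowest in the HPC lines. With normexp Adam9 and Adam15 were called in HPC against NPC.

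Adam28, a protease gene known from lymphocytes and epithelia, read -5.14 in 9F and -5.40 in 10F, -3.03 in HB1 and -3.12 in HNG2, and -5.16 in NPC, with 10F not well above background. Both HPC lines stood apart from the 3 arrays of the NSBAg2 lineage. Adam28 was at least 4.26-fold lower in iHPC than in HPC (adjusted p = 0.0302) and 4.24-fold higher in HPC than in NPC (adjusted p = 0.0247). With normexp both calls were lost, at log2 differences of -0.70 (adjusted p = 0.0582) and 0.59 (adjusted p = 0.0818). Adam8, a protease gene known from leukocytes, read 0.93 in 9F and 0.78 in 10F, 1.36 in HB1 and 2.66 in HNG2, and -0.76 in NPC, so NPC was the lowest array. Its difference from NPC was 1.62 in iHPC (adjusted p = 0.239) and 2.78 in HPC (adjusted p = 0.0684). With normexp Adam8 was called in HPC against NPC. Adam19, whose product acts in heart and neural crest development, read -1.23 in NPC and was not well above background on any iHPC or HPC array on the probe used. It read at least 18.4-fold lower in iHPC (adjusted p = 0.122) and at least 33.9-fold lower in HPC (adjusted p = 0.0538), neither of which passed. Of its 3 probes a second one read -2.26 in NPC and passed in both comparisons (adjusted p = 0.0283 in iHPC and 0.0121 in HPC), and the last did not stand out in NPC (-5.66). With normexp the probe used passed in both (adjusted p = 0.0225 and 0.0071), and with the scan day as a block it passed in iHPC (adjusted p = 0.0111). The probe used and the second one had come through the filter on dim probes by NPC alone. Adam12, a gene of muscle and stromal cells, was above background only in HPC, at -5.67 in HB1 and -3.12 in HNG2, and was not called.

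Adam23 and Adam11 belong to the neural ADAMs, which lack protease activity and bind LGI proteins and integrins. Adam23 read -0.64 in 9F and -0.71 in 10F, -3.68 in HB1 and -0.27 in HNG2, and was not well above background in NPC (-7.42). On the probe used, the iHPC arrays lay between the HPC lines, which lay apart (HB1 minus HNG2, -3.41), and all 4 lay above NPC. A second probe was well above background in 9F, 10F and HNG2 but not in HB1 (-8.06) or NPC (-7.49). Its HPC minus NPC difference was 1.82 (adjusted p = 0.587). The last probe was not well above background on any array. Adam23 read at least 30.2-fold above NPC in iHPC (6.75, SE 1.56, adjusted p = 0.112) and at least 12.3-fold above it in HPC (5.45, adjusted p = 0.101). With the scan day as a block the adjusted p of iHPC against NPC was 0.0044. Adam11 read -2.16 in NPC and between -5.45 and -3.59 on the other arrays, with no call in the fit of all 5 arrays. With normexp Adam11 was called in HPC against NPC. The remaining gene of this kind, Adam22, was not well above background on any array.

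A further 17 ADAM genes are known mainly from testis, epididymis or sperm, and 10 of them were tested. The signals of several were close to background. Adam4 read -4.87 in 9F and -4.73 in 10F, -2.44 in HB1 and -2.15 in HNG2, and was not well above background in NPC. It was 5.66-fold lower in iHPC than in HPC (-2.50, SE 0.22, adjusted p = 0.027) and, in HPC, at least 9.83-fold above NPC (adjusted p = 0.0138). Adam1a was not well above background in iHPC and read -3.31 in HB1, -3.09 in HNG2 and -5.40 in NPC, which made it at least 4.70-fold lower in iHPC than in HPC (adjusted p = 0.0301) and 4.59-fold higher in HPC than in NPC (adjusted p = 0.0264). With normexp both calls of Adam1a were lost, at -0.53 (adjusted p = 0.12) and 0.46 (adjusted p = 0.183). Adam4, Adam1a and Adam28 thus shared their order on the probes used, with both HPC lines above the other 3 arrays.

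Adam5, Adam25 and Adam29 were called the other way. Adam5 was not well above background in iHPC, read -4.95 in HB1, -4.52 in HNG2 and -3.21 in NPC, and was at least 4.67-fold lower in iHPC than in NPC (adjusted p = 0.0352). The call was lost with normexp (-0.90, adjusted p = 0.0916), and its other probe was not well above background on any array. Adam25 read -1.66 in NPC on the probe used, which passed the filter through NPC alone, and was not well above background elsewhere, at least 13.6-fold lower in iHPC (adjusted p = 0.0284) and at least 25.0-fold lower in HPC (adjusted p = 0.0114). Its other probe, which did not pass the filter and is the brighter one by mean over the arrays, did not show this, at -5.69 in NPC and between -6.56 and -5.25 on the other arrays. Adam29 was well above background only in NPC, at -5.41, and was at least 1.86-fold lower in HPC (adjusted p = 0.0282). Its probe had passed the filter through NPC alone, and its other probe was not well above background on any array. Adam24 was well above background only in 9F (-2.78) and was not tested.

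**Figure D4:**
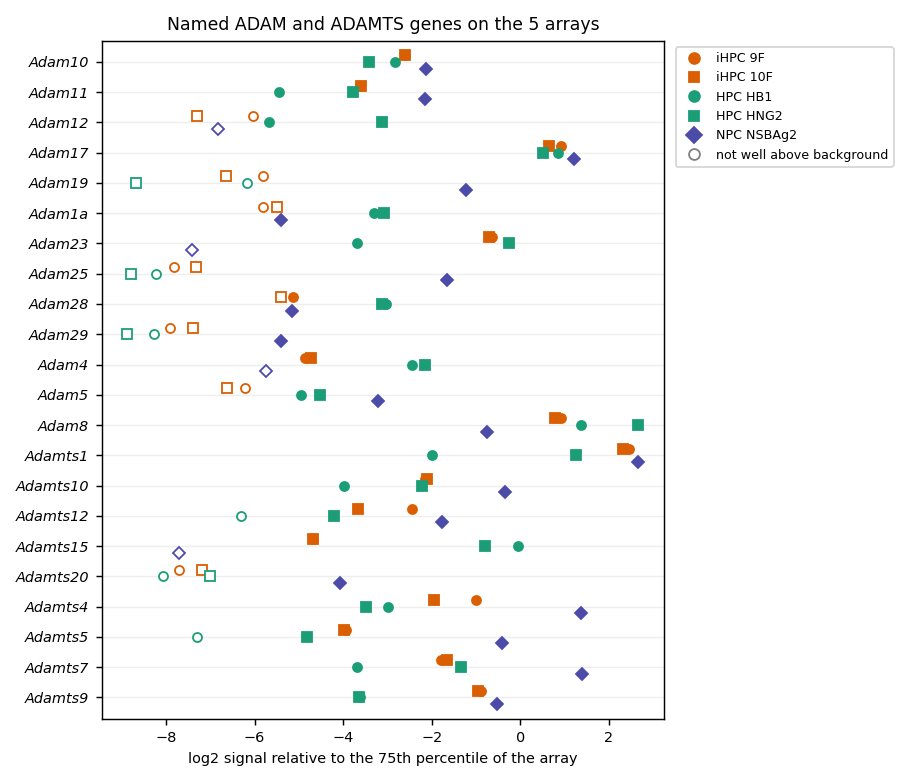
Log2 signal relative to the array's 75th percentile on the 5 arrays for the ADAM and ADAMTS genes named by rule (open symbols not well above background), 1 gene per line. Adam17 reads between 0.51 and 1.20 on every array, while Adamts15 reads -4.67 and -4.69 in iHPC, -0.05 and -0.79 in HPC and -7.71 in NPC.

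Among the 7 proteoglycan-cleaving ADAMTS genes 6 were tested. Adamts15, with its probe at chr9:30800473-30800532 on the minus strand of mm7, read -4.67 in 9F and -4.69 in 10F, -0.05 in HB1 and -0.79 in HNG2, and was not well above background in NPC (-7.71). The 3 groups did not overlap. Adamts15 was 19.2-fold lower in iHPC than in HPC (-4.26, SE 0.33, adjusted p = 0.0235), at least 36.1-fold above NPC in HPC (adjusted p = 0.0112) and at least 1.88-fold above it in iHPC (adjusted p = 0.0474). It was called in all 3 comparisons, the lone member to be so in the fit of all 5 arrays. The call against NPC in iHPC was lost with normexp background correction (adjusted p = 0.482).

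Adamts9, a versican-cleaving enzyme gene of blood vessels and basement membranes, read -0.89 in 9F and -0.95 in 10F, -3.63 in HB1 and -3.64 in HNG2, and -0.53 in NPC. The iHPC arrays stayed near NPC, as for Mmp10 and Mmp13, and were 6.56-fold higher than HPC (2.71, SE 0.18, adjusted p = 0.0212), while HPC were 8.58-fold lower than NPC (-3.10, adjusted p = 0.0132). The other 2 probes of Adamts9 gave 1.16 (adjusted p = 0.267) and 2.94 (adjusted p = 0.0683) for iHPC minus HPC, and with the mean of the probes that call was lost (2.27, adjusted p = 0.0574). Adamts4, one of the aggrecanases, read -1.0 in 9F and -1.96 in 10F, -2.99 in HB1 and -3.48 in HNG2, and 1.36 in NPC. It was 24.2-fold lower in HPC than in NPC (-4.60, SE 0.54, adjusted p = 0.0232), and 7.16-fold lower in iHPC without passing (adjusted p = 0.0793). With the scan day as a block, and with normexp, Adamts4 was called in iHPC too. Adamts5, the other main aggrecanase, read -3.93 in 9F and -3.99 in 10F, -4.82 in HNG2, not well above background in HB1, and -0.42 in NPC. Its differences from NPC were -3.54 in iHPC (adjusted p = 0.187) and -5.65 in HPC (adjusted p = 0.0568). With normexp Adamts5 was called in both comparisons, and with the scan day as a block in iHPC against NPC. Adamts20, which acts on versican in skin and palate development, was well above background only in NPC (-4.07), and there on 1 of its 3 probes. That probe had passed the filter on dim probes through NPC alone. It was at least 4.73-fold lower in HPC (adjusted p = 0.0408). The call was lost under quantile normalization (adjusted p = 0.0642) and median centring (adjusted p = 0.0502).

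Adamts1 read 2.44 in 9F and 2.31 in 10F, -1.99 in HB1 and 1.26 in HNG2, and 2.65 in NPC. Here HB1 alone was low, 9.49-fold under HNG2, and no comparison passed. The remaining ADAMTS genes gave no call here. With the scan day as a block Adamts7 and Adamts10 were called in iHPC against NPC. With normexp Adamts7, Adamts10 and Adamts12 were called in HPC against NPC. Adamts7, an enzyme gene of cartilage and vessel wall, read -1.79 in 9F and -1.66 in 10F, -3.69 in HB1 and -1.34 in HNG2, and 1.39 in NPC, with differences from NPC of -3.12 in iHPC (adjusted p = 0.206) and -3.91 in HPC (adjusted p = 0.0957). Its other probe passed in HPC (-4.27, adjusted p = 0.0295). Adamts10, linked to fibrillin microfibrils, and Adamts12 had NPC as their highest array too, at -0.34 and -1.78. The procollagen N-proteinase genes on the array, Adamts2 and Adamts3, were not tested, since Adamts3 was not well above background on any array and Adamts2 was so only in HNG2, where 1 of its 4 probes read -1.69.

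Between HB1 and HNG2, 13 of the 53 tested genes were at least 4-fold apart on the probe used, and 8.59% of all genes were so in either direction. Of the 13 genes 11 were higher in HNG2, and the direction over all genes was not counted. Only 6 of the 13 were well above background on both arrays. The fibroblast markers Pdgfrb, Thy1, Dcn and Twist1 were well above background in HNG2 and not in HB1, and their part in these differences was not tested. The spread of this pair, with a median SD of 0.374 over all genes against 0.105 for the iHPC pair, sets which differences pass. Without HB1 or without HNG2, 31 members were called in iHPC against NPC in place of 9. Without 9F or without 10F, 0 were called, with 19 at an unadjusted p under 0.05 in either case.

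Of 14 genes for activators and inhibitors of these enzymes (furin-like convertases, plasminogen activators and their inhibitors, Reck, Bsg and others) 12 were tested. In iHPC 1 rose and 0 fell against NPC, and 2 rose and 1 fell against HPC, while in HPC 2 were higher and 1 lower than in NPC. Over all genes 5.64%, 5.42% and 15.7% were called in these comparisons. Pcsk6, a convertase that cuts proprotein precursors, read 0.43 in 9F and 1.04 in 10F, 4.06 in HB1 and 3.50 in HNG2, and -3.91 in NPC. It was 25.1-fold higher in iHPC than in NPC (adjusted p = 0.031), 8.24-fold lower in iHPC than in HPC (adjusted p = 0.0392) and 207-fold higher in HPC than in NPC (adjusted p = 0.0112). Plg, which encodes plasminogen, the precursor of an MMP-activating protease, read -2.26 in 9F, -1.93 in 10F and -3.39 in NPC and was not well above background in HPC. It was at least 18.6-fold higher in iHPC than in HPC (adjusted p = 0.0156) and at least 7.54-fold lower in HPC than in NPC (adjusted p = 0.0115). Plat, the tissue plasminogen activator gene, was 6.25-fold higher in iHPC than in HPC (adjusted p = 0.0331), and Plaur, the urokinase receptor gene, was 3.94-fold higher in HPC than in NPC (adjusted p = 0.0327). Furin itself read between 3.04 and 3.52 on the 5 arrays.

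Of 8 tested partners of Adam10 and Adam17 (the iRhoms, Frmd8 and tetraspanins), 1 rose in iHPC against NPC, 0 were called in iHPC against HPC, and 2 were higher in HPC than in NPC. The shares called over all genes were 5.64%, 5.42% and 15.7%, in that order. Tspan33, a tetraspanin of Adam10, read 0.48 in 9F and 0.69 in 10F, 1.85 in HB1 and 0.60 in HNG2, and -3.96 in NPC. It was 23.4-fold higher in iHPC (adjusted p = 0.0479) and 36.5-fold higher in HPC (adjusted p = 0.0237) than in NPC. Tspan15, another Adam10 partner, was 12.5-fold higher in HPC than in NPC (adjusted p = 0.0492) and read -3.86 and -3.67 in iHPC against -3.69 in NPC. The iRhom genes Rhbdf1 and Rhbdf2, whose products carry Adam17 to the surface, were not called.

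Of 16 genes of cell surface proteins that ADAMs release, all of them tested, 6 were higher in HPC than in NPC and 0 lower. Over all genes 6.68% were higher and 8.98% lower in that comparison. The 6 were the EGF family ligand genes Hbegf, Areg, Tgfa, Btc and Nrg1 and the E-cadherin gene Cdh1. All 16 genes were well above background on both HPC arrays, 15 on both iHPC arrays and 13 in NPC. Tgfa, Btc and Nrg1 were not so in NPC and passed the filter through iHPC and HPC alone. They had to be higher there, so their p-values against NPC give no support, and the shares are not read against the background. In iHPC against NPC 2 rose and 0 fell, and against HPC 0 were called. Tgfa read -1.98 in 9F and -1.75 in 10F, -1.75 in HB1 and -1.38 in HNG2, and its NPC signal was not well above background. Tgfa was at least 13.3-fold higher in iHPC (adjusted p = 0.0284) and at least 16.3-fold higher in HPC (adjusted p = 0.0112). Cdh1 was 57.7-fold higher in iHPC (adjusted p = 0.0364) and 277-fold higher in HPC (adjusted p = 0.0142) than in NPC. Areg, the amphiregulin gene, was 38.4-fold higher in HPC (adjusted p = 0.0381), and read 1.06 and 1.73 in iHPC against -3.35 in NPC without passing (adjusted p = 0.0709). Notch1, Notch2, App and Cd44 were not called in any comparison.

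The matrix substrate genes called against NPC were lower than in it. Of 11 tested, 1 fell and 0 rose in iHPC against NPC, 2 rose and 0 fell in iHPC against HPC, and 5 were lower and 0 higher in HPC than in NPC. Over all genes 2.85% fell in the first comparison, 3.54% rose in the second and 8.98% were lower in the last. All 11 were well above background in NPC, 9 on both iHPC arrays and 6 on both HPC arrays. Genes that passed the filter through NPC alone had to be lower. Comp, a cartilage matrix protein that several ADAMTS enzymes cut, read -0.94 in 9F and -0.71 in 10F, -4.34 in HB1 and -4.86 in HNG2, and 0.51 in NPC. It was 13.7-fold higher in iHPC than in HPC (adjusted p = 0.0229) and 34.5-fold lower in HPC than in NPC (adjusted p = 0.0125). Col1a2 was lower than in NPC in iHPC (194-fold, adjusted p = 0.0471) and in HPC (442-fold, adjusted p = 0.0224), and Col2a1, Col3a1 and Dcn were lower in HPC. Col1a1, Col1a2 and Dcn also stand in the fibroblast marker list. Vwf, the substrate gene of Adamts13, was called higher in iHPC than in HPC (adjusted p = 0.0455). Acan, the aggrecan gene, read 0.47 and 0.68 in iHPC, -1.60 and -0.17 in HPC, and -4.06 in NPC, with no call. Of 9 tested relatives outside the named families, Adamtsl3 was called lower in iHPC (at least 23.0-fold, adjusted p = 0.0321), and Adamtsl2 and Adamtsl3 lower in HPC, than in NPC. All 9 were well above background in NPC, but 5 on both iHPC arrays and 4 on both HPC arrays, so the same limit holds.

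**Figure D5:**
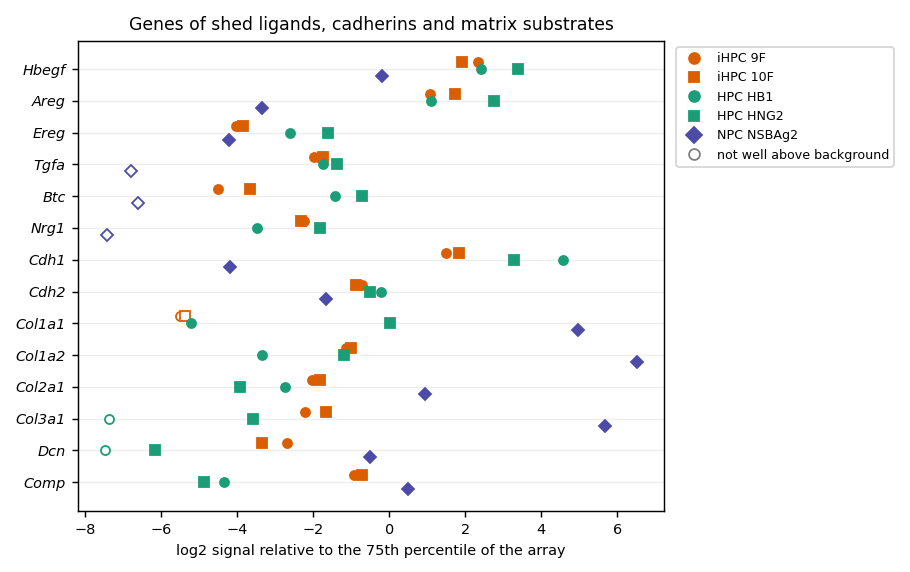
Log2 signal relative to the array's 75th percentile on the 5 arrays for genes of shed EGF family ligands and cadherins and of matrix substrates (open symbols not well above background), 1 gene per line. NPC is the leftmost array for every ligand and cadherin gene drawn and the rightmost for every collagen gene, Dcn and Comp.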

How the data were processed

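RNA of 5 mouse cell lines (0.25 µg each, per the labels' protocols) was measured on Agilent arrays of 1 colour. The deposited files hold 1 processed intensity per spot. It was made with Agilent Feature Extraction 10.7.3.1, which per the file headers took off the local background, detrended each array and replaced near-background readings by surrogates. The headers record no scaling between arrays. The deposited matrix of the series gave the same intensity on 100% of the spots compared, and is therefore linear and uncentred (column medians 41.5 to 69.3). The number of arrays (2, 2 and 1) limits the precision.

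The log2 of each processed intensity was taken and the array's 75th percentile subtracted. Control spots and spots marked as outliers were left out and spots of 1 probe averaged. Probes were named through their accession in RefSeq (GRCm38.p6; 22933 probes) or through a symbol found there (6663), and 11553 kept the array's own name, which can be old. Probe positions are those of the files, on mm7. Probes were kept if all arrays of some group measured them well above background, and each gene was taken at its brightest probe by mean, which left 19303 genes. The tests used limma 3.58.1 under R 4.3.3 (lmFit and eBayes, two-sided, Benjamini-Hochberg over all genes) in 1 fit of 5 arrays with 2 residual degrees of freedom, which takes the variance of NPC from the other groups. Where no array of a group measured a gene well above background, its fold is a bound (at least so many fold). For the bound each dim array was given its own lowest signal well above background, or the probe's signal where that was larger, before the group was averaged. Where only some arrays of a group were dim, those arrays were treated in the same way. The fit was tested on simulated data.

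The members, lists and markers were chosen with earlier results of these data known. Named members are those called in a comparison, those well above background in a group with a log2 difference of at least 2, and Mmp2, Mmp9, Mmp14, Adam10, Adam17 and the TIMP genes. Adam9, Adam15, Adam33, Mmp17, Mmp24, the untested genes, and the list genes that were not called were named after their values were seen. ADAM genes were grouped by known role. A planned grouping by the zinc-binding motif of their proteins was not done. Embryonic stem cell arrays and the neural line NSEB5-2C named in the study's design were not used here. Plots were made with matplotlib 3.10.9.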

Additional observations from a re-analysis of the deposited data

Results flagged for a closer look

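Adam1a and Mmp28 had both iHPC arrays on one side of the NPC array and both HPC arrays on the other. For Adam1a, 9F and 10F lay under NPC, at -5.81 and -5.50, and HB1 and HNG2 above it, at -3.31 and -3.09, with NPC at -5.40. The difference between iHPC and HPC was -2.46 on the log2 scale (limma adjusted p = 0.0301), and neither iHPC value was well above background. The lowest signal well above background was -5.19 on the 10F array, above the NPC value of Adam1a, so on which side of NPC the iHPC arrays lie is not settled for this gene. With normexp background correction the difference between iHPC and HPC was -0.53 and was not called (limma adjusted p = 0.12). For Mmp28, on the probe used, 9F and 10F read -4.66 and -4.80, HB1 and HNG2 -2.36 and -1.85, and NPC -2.91. The difference between iHPC and HPC on that probe was -2.63 (limma adjusted p = 0.0327). Both are measured against the same single NPC array, so the 2 sides are not independent, and this difference between iHPC and HPC is the test of them.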

How the results depend on the processing

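No paired analysis was possible because the labels give no replicate numbers that link arrays of different groups. The calls turn on which pair of arrays gives the spread. Leaving out 1 array at a time, the members called ranged from 0 to 31 in iHPC against NPC, 0 to 25 in iHPC against HPC and 0 to 40 in HPC against NPC, and all genes called from 0 to 6752, 0 to 6988 and 0 to 9760. The zeros came without 9F or without 10F, where limma gave 19 members in the first comparison, 12 or 13 in the second and 28 in the last at an unadjusted p under 0.05, and the variance came from HPC alone. The high counts came without HB1 or without HNG2. With the scan day as a block, or with only the arrays of iHPC and NPC, 31 members and 6752 genes were called. Beside the members given with the block above, it gained Adam11, Adam1b, Adam29, Adam4, Adam8, Adamts20, Mmp28 and Timp4. With only the arrays of HPC and NPC, 0 members (28 at an unadjusted p under 0.05) and 0 genes (3889) were called. Without the filter on dim probes limma called 0 members (22 at an unadjusted p under 0.05) and 305 genes in iHPC against NPC, 3 members and 460 genes in iHPC against HPC, and 1643 genes in HPC against NPC. Of the 9, 8 and 19 members called here, 0, 3 and 12 were called without the filter and 4, 6 and 16 with normexp. Normexp also called Adamts4, Adamts5, Mmp19 and Timp2 in iHPC against NPC and Mmp23 in iHPC against HPC. In HPC against NPC its added calls included Adam5, Adam8, Adam9, Adam11, Adam15 and Mmp2. With probes kept only if all 5 arrays measured them, the members called were 2, 4 and 7, in the same order, and the genes 492 and 617 in the first pair of comparisons. Normexp background correction gave 2118 genes in iHPC against HPC and 4747 in HPC against NPC. The median of all genes moved to -0.20 in iHPC against HPC and 0.29 in HPC against NPC under median centring, and to 0.18 and -0.19 under normexp, so differences of that size depend on the scaling.

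Of 1174 values over 90 results, 12 turned their direction, all of them in differences not called under that setting. In iHPC against HPC, Adam17 was at -0.15 with median centring and from -0.064 to 0.27 with 1 array left out, Mmp9 at 0.43 with normexp and from -1.09 to 0.35 with 1 array left out, and Timp4 at -0.046 with quantile normalization, -0.014 with median centring and from -0.15 to 0.62 with 1 array left out. In iHPC against NPC, Timp1 was at 0.046 with median centring and from -0.052 to 0.013 with 1 array left out, and Adam25 at 0.099 without the filter, where its other probe was used. In HPC against NPC, Timp4 was at -0.26 with normexp. Apart from the probe of Adam25, the cause was not tested. Genes near background, among them most of the ADAM genes of testis and sperm, rest on signals that are close to the lowest ones measured (-6.62 to -5.19 across arrays).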
